A study of Homo sapiens with 18 samples.

Results

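Differentiation under an shRNA against KBTBD8 was read on 4 of the 18 arrays of the study, as embryoid bodies of day 6 minus pluripotent cells, both carrying that shRNA. The groups were taken from the sample titles, and replicates 1 and 3 of each group were used. All arrays measured total RNA of H1, an established line of human embryonic stem cells. They fall into 6 groups of 3, formed by 2 states and 3 lentiviral treatments: no transduction, a control shRNA, and the KBTBD8 shRNA. Pluripotent cells were kept feeder-free in mTeSR1 over Matrigel, and embryoid bodies were formed in AggreWell plates in APEL medium. The KBTBD8 shRNA cells had received their virus in both states, so the shRNA is common to both groups compared. The series text calls the 3 samples of a group independent, and beyond that the labels name no separate cultures, so the p-values measure the spread between these samples. Only 2 arrays stood in each group, which limits the precision.

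KBTBD8 is a kelch and BTB domain protein that brings substrates to the CUL3 ubiquitin ligase, and it is known for its part in the formation of the neural crest, where its targets include the nucleolar proteins TCOF1 and NOLC1. Embryoid bodies are aggregates in which stem cells leave pluripotency, and without signals of the NODAL and BMP families they tend towards anterior neural ectoderm. At the edge of the neural plate, progenitors of the placodes and of the neural crest are set apart from the plate by WNT, BMP and FGF signals.

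Both replicate 2 arrays of the KBTBD8 shRNA lay with the opposite state, which is why they stand outside the comparison. A state score was taken as the mean standardised level of 1347 genes that passed and changed 2-fold or more in untransduced differentiation. Genes that fell there entered with the opposite sign. The array labelled pluripotent scored 0.42, whereas its partners scored −0.81 and −0.83. The array labelled embryoid body scored −0.79, whereas its partners scored 0.45 and 0.47. On the pair itself, the array labelled pluripotent minus the array labelled embryoid body had the sign of the 4-array difference in 1057 of the 1060 genes that changed 2-fold or more (99.7%). The labels were kept as given, no cause was tested, and counts with both arrays in place or exchanged are given beside the results.

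KBTBD8 itself was low in both states under its shRNA. Its log2 level was 5.13 and 4.96 on the pluripotent arrays and 4.86 and 4.66 on the embryoid body arrays, all below the 40th percentile of their array. The 2 groups did not overlap, but their difference of −0.28 ± 0.28 (standard error) did not pass in limma (adjusted p 0.47). In an exact two-sided permutation test of 2 against 2 arrays its p was 0.333, the smallest that design allows. With the control shRNA the level went from 6.39, 7.09 and 7.03 to 4.43, 4.79 and 5.04, a fall of 2.08 (exact p 0.1, the smallest for 3 against 3). KBTBD8 was lower than with the control shRNA before differentiation (−1.79, limma adjusted p 0.0003), and no difference passed after it, where the difference was 0.01 (adjusted p 1.0). The fall of KBTBD8 seen with the control shRNA was smaller by 1.80 ± 0.36 under the KBTBD8 shRNA (adjusted p 0.005). KBTBD8 was also low in the other embryoid bodies, at array percentiles 23.6, 28.8 and 33.0 with the control shRNA and 26.7, 36.1 and 20.4 untransduced. These levels are near background, which limits the comparison of embryoid bodies and the sizes of the falls.

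The 5 genes that mark this comparison changed by 4.19 to 5.47 in size on the log2 scale. SIX3, a homeobox gene of the eye field and forebrain, stood at 5.17 and 5.59 in pluripotent cells and at 10.23 and 10.59 in embryoid bodies. DLX5, a homeobox gene of the anterior border and the placodes, went from 4.73 and 4.51 to 9.85 and 10.12. Both were low before and high after. The control shRNA brought SIX3 only to 7.14, 7.24 and 7.16 and DLX5 to 7.95, 7.51 and 7.85. The increase was larger under the KBTBD8 shRNA by 3.27 ± 0.22 for SIX3 (adjusted p 3.1e-07) and by 2.75 ± 0.20 for DLX5 (adjusted p 7.6e-07). For DLX5 the untransduced increase was also smaller (difference 3.74, adjusted p 1.8e-08), whereas for SIX3 the difference from untransduced cells was 0.62 and did not pass (adjusted p 0.052).

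PRTG, an immunoglobulin superfamily receptor of the early neural tube, went from 5.08 and 5.31 to 10.72 and 10.61. GREB1L, a gene needed in kidney and inner ear development, went from 4.34 and 4.09 to 9.37 and 9.52. Neither difference from the control shRNA passed (PRTG 0.59, adjusted p 0.15, and GREB1L 0.055, adjusted p 0.90). INHBE, which encodes the inhibin beta E chain and is a target of the stress factor ATF4, went the other way, from 9.83 and 9.91 to 5.97 and 5.40. Its pluripotent level stood above all 6 pluripotent arrays of the other treatments, where it lay between 6.89 and 8.33, and its fall exceeded that of the control shRNA by 2.80 ± 0.37 (adjusted p 0.00021).

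**Figure D1:**
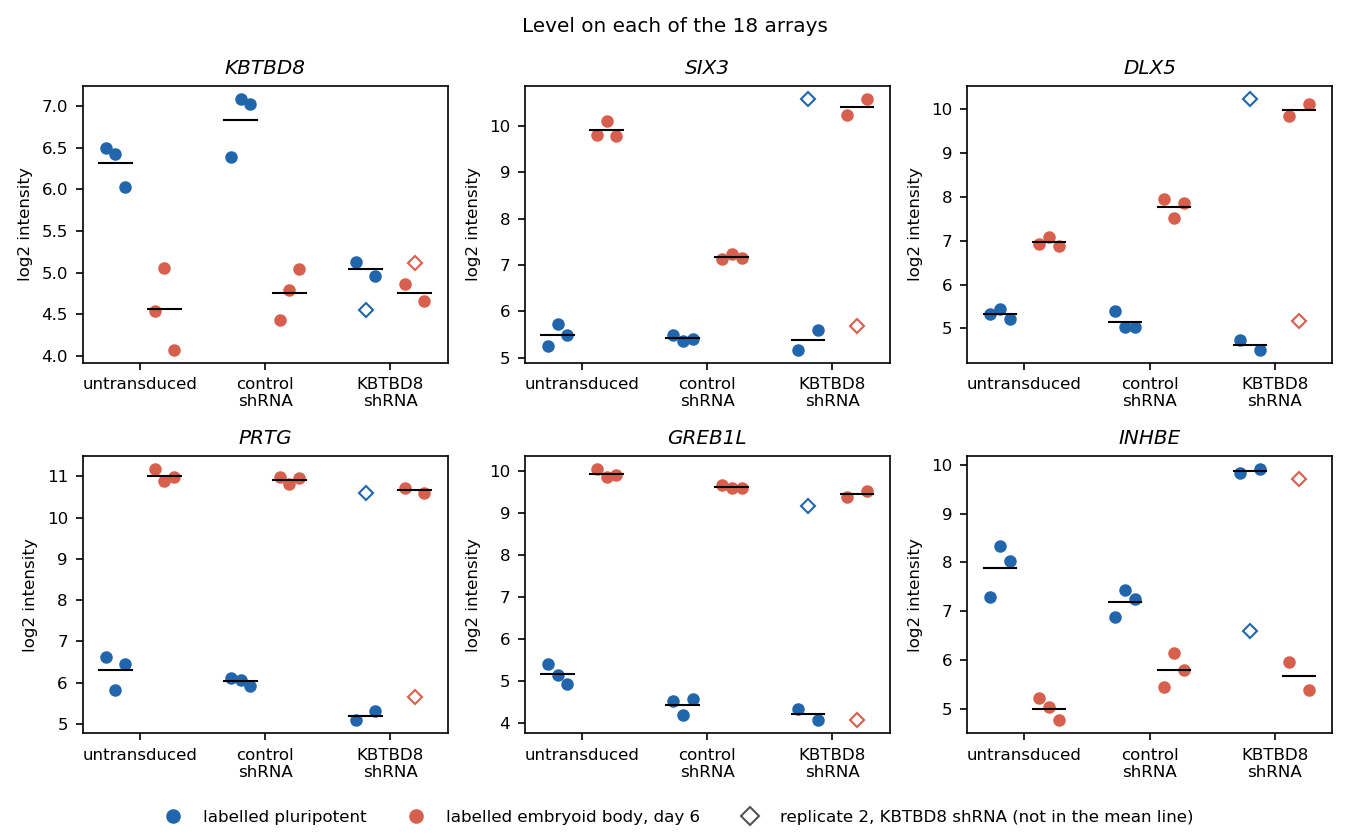
Log2 intensity of KBTBD8 and of the 5 marker genes on all 18 arrays, grouped by treatment (horizontal) and coloured by labelled state; black lines are group means, and open diamonds are both replicate 2 arrays of the KBTBD8 shRNA, left out of the mean. KBTBD8 is low in both KBTBD8 shRNA groups and in the embryoid bodies of the other treatments. SIX3 and DLX5 are higher in KBTBD8 shRNA than in control shRNA embryoid bodies, and each diamond of the 5 markers lies with the state opposite to its colour.

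Over all 14373 genes tested, 5483 passed an adjusted p of 0.05 in limma (38.1%), 2472 higher (17.2%) and 3011 lower (20.9%) in embryoid bodies. Of these, 1060 changed 2-fold or more, 433 up and 627 down, and the median difference over all genes was 0.002. With both replicate 2 arrays in place as labelled, 0 genes passed and 774 had an unadjusted p under 0.05. With their labels exchanged 6922 passed, 5282 of them among the 5483 and in the same direction.

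The 12 largest increases held genes of the neural plate, its border and the forebrain. PRTG (5.47 ± 0.19, adjusted p 9.7e-12), DLX5 (5.37 ± 0.16), DLK1 (5.24, an imprinted ligand related to the NOTCH ligands), GREB1L (5.23) and SIX3 (5.03) led them. HAPLN1 (4.69), a link protein of hyaluronan matrix, PAX6 (4.61), the regulator of eye and forebrain, and CDH6 (4.40), a cadherin of neural tube and crest, followed. The last 4 were ENC1 (4.11), a kelch protein of early neural tissue, TFAP2A (4.11), FRZB (4.09), a secreted WNT antagonist, and FEZF1 (4.02), a forebrain zinc finger. HAPLN1 stood at 4.64 and 4.54 before and at 9.30 and 9.25 after. It rose more than with the control shRNA (by 1.82, adjusted p 0.00027) and more than in untransduced cells (by 3.23, adjusted p 3.7e-07).

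The 12 largest decreases began with a signalling enzyme. ADCY2, an adenylyl cyclase, fell by 4.54 ± 0.16 (adjusted p 9.7e-12), from 9.51 and 9.66 to 5.33 and 4.77. The other decreases were ERVH48-1 (−4.20), INHBE (−4.19), CRIPTO (−3.99), FLT1 (−3.93), CXCL5 (−3.78), NTS (−3.76), GAL (−3.60), SPATS2L (−3.52), SLC7A5 (−3.42), LRRC2 (−3.38) and GNA14 (−3.32). ERVH48-1 is a retroviral envelope gene of stem cells and placenta, FLT1 a VEGF receptor, CXCL5 a chemokine, NTS and GAL neuropeptide genes and SLC7A5 a transporter of large amino acids. CXCL5 stood at 9.63 and 9.70 before and at 5.94 and 5.81 after, and its fall was larger than with the control shRNA by 2.43 (adjusted p 9.0e-06). The dim side of 7 of the 12 increases and 5 of the 12 decreases lay below the 40th percentile on both arrays, so the size of those folds ends at a low intensity.

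**Figure D2:**
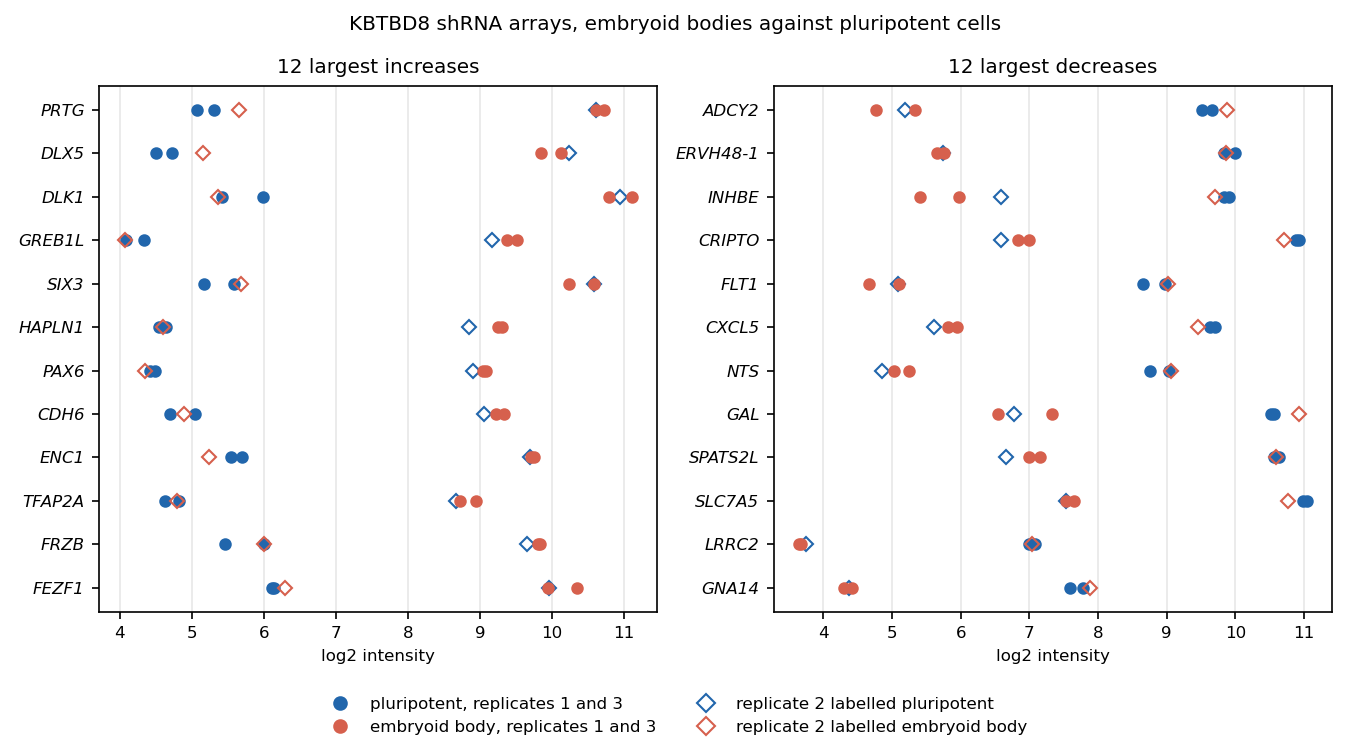
Log2 intensity of the 12 largest increases (left) and the 12 largest decreases (right) on the 6 arrays of the KBTBD8 shRNA; filled circles are replicates 1 and 3, open diamonds replicate 2, and colour gives the labelled state. The 24 genes were chosen among those whose filled groups do not overlap. The diamond of each label lies near the filled circles of the other label.

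The other treatments were measured on other arrays, and most calls were shared with them. Of the 2472 genes that rose, 1818 also rose with the control shRNA (73.5% of these, 55.2% of the 3294 that rose there). Of the 3011 that fell, 2168 also fell with the control shRNA (72.0% of these, 60.1% of the 3605 there). In the control shRNA comparison 48% of all genes passed. Untransduced differentiation, in which 51.8% passed, shared 1683 rises and 1998 falls. In all 3 treatments 1448 genes rose and 1737 fell. Across genes the change correlated at 0.80 with the control shRNA and at 0.70 with untransduced cells, with regression slopes of 0.80 and 0.62. These are descriptions across genes, which are not independent replicates, and all arrays share a platform and a normalization.

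The difference between the KBTBD8 shRNA and the control shRNA change passed for 1387 genes (9.65%), 526 with a higher (3.66%) and 861 with a lower change (5.99%), and was 2-fold or more for 289. This count fell to 731 without replicate 3 of the pluripotent KBTBD8 shRNA cells and to 861 without replicate 1 of their embryoid bodies. It was 521 with the replicate 2 arrays as labelled and 2312 with them exchanged. Part of this difference lay before differentiation. Of the 205 genes with a change lower by 2-fold or more, 98 passed between the shRNAs in pluripotent cells alone, 66 in embryoid bodies alone, 39 in both and 2 in neither. Of the 84 with a change higher by 2-fold or more, 22 passed in pluripotent cells alone, 43 in embryoid bodies alone, 17 in both and 2 in neither. These shRNA comparisons use the same arrays, and 13.8% of all genes passed in pluripotent cells and 5.74% in embryoid bodies.

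The 8 largest differences towards a higher change were SIX3 (3.27), DLX5 (2.75), SLITRK1 (2.58), FZD5 (2.49), HPGD (2.35), HESX1 (2.34), MECOM (2.01) and GAD2 (1.90). SLITRK1 is a neuronal membrane protein, FZD5 a WNT receptor of the eye field, HPGD a prostaglandin dehydrogenase, HESX1 a forebrain and pituitary homeobox gene, MECOM a zinc finger factor and GAD2 an enzyme of GABA synthesis. FZD5 was at 7.86 and 7.90 before and at 10.32 and 10.37 after. With the control shRNA it stayed between 8.27 and 8.38 in both states. Untransduced cells also raised FZD5, by 1.81 to 10.19, 10.23 and 10.23 (difference 0.65, limma adjusted p 0.0076). MECOM (0.63, adjusted p 0.066), GAD2 (0.56, adjusted p 0.24) and SIX3 had no passing difference from untransduced cells. The other genes of these 8 had a passing higher change there. SLITRK1 was at 6.64 and 6.74 before and 9.90 and 9.83 after, above every other array of replicates kept in the fit.

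The 8 largest differences towards a lower change were TXNIP (−4.03), NRIP3 (−3.08), NPR3 (−3.0), ARRDC4 (−2.99), ETS1 (−2.87), INHBE (−2.80), BNC1 (−2.66) and ITGA4 (−2.63). Their levels differed in form. NPR3, a natriuretic peptide receptor, and ITGA4, an integrin of crest and blood cells, did not pass with the KBTBD8 shRNA (0.12, adjusted p 0.63, and 0.031, adjusted p 0.89). NPR3 stood at 4.17 and 3.98 before and at 3.87 and 4.52 after, all below the 40th percentile of their array. It read 7.56, 7.38 and 7.33 in control shRNA embryoid bodies but 3.81, 3.81 and 3.68 in untransduced ones. The NPR3 difference from untransduced cells was −0.21 and did not pass in limma (adjusted p 0.54). BNC1, a zinc finger gene of basal epithelium, and INHBE began high, BNC1 at 7.33 and 7.68, and ended at 4.48 and 4.35, just below the other embryoid bodies (4.60 to 4.86).

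**Figure D3:**
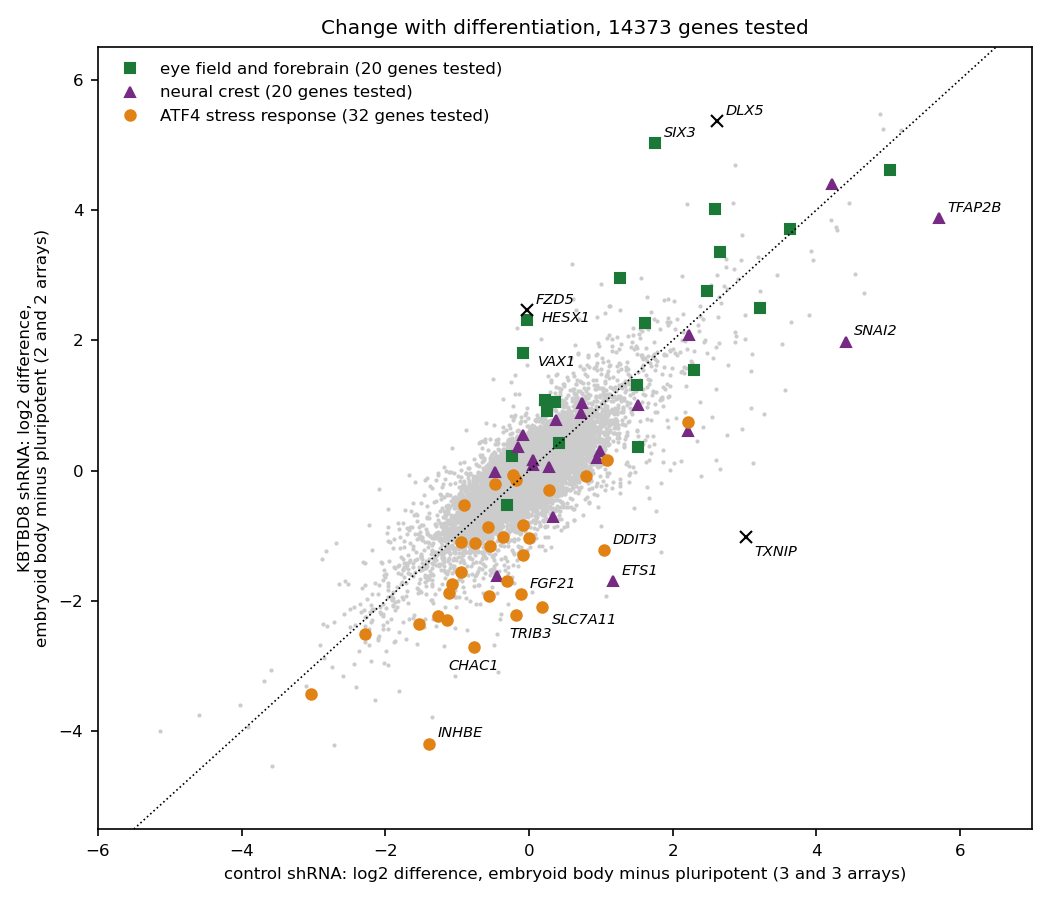
Log2 difference of embryoid bodies minus pluripotent cells with the KBTBD8 shRNA (vertical, 2 and 2 arrays) against the same with the control shRNA (horizontal, 3 and 3 arrays); grey points are all 14373 genes, coloured symbols members of 3 gene lists, crosses other named genes, and the dotted line marks equal change. SIX3, HESX1 and VAX1 of the forebrain lie above the line, SNAI2, ETS1 and TFAP2B of the crest below it, and most genes of the stress list below it.

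Eye field and forebrain genes rose, and several rose more than with the control shRNA. Of 20 tested, 17 rose (17.2% of all genes rose), 1 fell and 2 did not pass, with a median difference of 2.04, where control shRNA gave 14 of 20 and 1.51 and untransduced cells 17 of 20 and 1.65. PAX6 reached 9.04 and 9.09 from 4.42 and 4.49, LHX2 8.28 and 8.43 from 5.43 and 5.37, and DACH1 rose by 3.36. Those values place both homeobox genes well apart from the pluripotent arrays. In the difference from the control shRNA 9 members were higher (3.66% of all genes) and 2 lower, a count of 9 that became 5 without replicate 3 of the embryoid bodies. HESX1, read at 4.15 and 4.27 before and 6.43 and 6.61 after, did not move with the control shRNA (−0.03). VAX1, a ventral optic gene, rose by 1.80 against −0.08 (difference 1.88, adjusted p 0.0051), and LHX2 rose more by 1.69 (adjusted p 0.00045). RAX (1.08 against 0.22), SIX6 (1.06 against 0.36), LMO3 (0.92 against 0.25), FEZF1 and DACH1 also had a higher change, whereas OTX1 (1.55 against 2.29) and FEZF2 (0.37 against 1.52) had a lower one.

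Against untransduced cells 6 forebrain members had a higher change and 7 a lower one, where 9.27% and 12.2% of all genes did. OTX2 rose by 2.75 against 1.19 untransduced, whereas LHX2 (2.96 against 4.40), PAX6 (4.61 against 5.85) and LIX1 (3.71 against 5.36) rose less. EMX1, a dorsal forebrain gene, was the member that fell (−0.52, adjusted p 0.017).

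Broad neural plate genes rose as well, where 17.2% of all genes rose and 20.9% fell. Of 23 tested, 17 rose and none fell (median 0.97, against 1.13 with the control shRNA and 1.56 untransduced), with 14 to 18 rising when 1 array was left out. DLK1, PRTG, GREB1L and ZEB2 (3.24) led, and MEIS2, ZNF521, CDH2 (1.58) and SOX11 (1.22) rose as well. SOX2 rose by 0.31 (adjusted p 0.035), and SOX1 (0.33, adjusted p 0.21) and SOX3 (−0.12, adjusted p 0.52) did not pass. NR2F1, a nuclear receptor of posterior and caudal fates, rose less than with the control shRNA. It went from 5.65 and 5.83 to 6.75 and 6.46, against 8.84, 9.26 and 9.21 in control shRNA and 9.05, 8.89 and 9.02 in untransduced embryoid bodies (difference from the control shRNA −2.40, adjusted p 1.0e-05). MEIS1, a TALE homeobox gene, rose by 0.97 against 4.23 untransduced (difference −3.26, adjusted p 1.9e-08), though its difference from the control shRNA of −0.44 did not pass.

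In the list of midbrain, hindbrain and spinal cord 6 of 14 genes rose (17.2% of all genes) and none fell (20.9%). Their median was 0.28. FGF8, a ligand of the midbrain boundary and the anterior neural ridge, rose from 5.34 and 5.48 to 6.80 and 6.97, while the control shRNA left it between 5.39 and 5.87 (difference 1.67, adjusted p 2.8e-05). PAX8, of the otic placode and the midbrain boundary, rose by 2.02 against 0.16 (difference 1.86, adjusted p 4.6e-05), and PAX2 rose by 1.88 against 1.50 (adjusted p 0.47). The HOX genes tested did not pass, with HOXB1 at 0.13 and HOXB4 at −0.08.

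Placode and border genes rose as a group, with 14 of 18 up (17.2% of all genes) and none down (20.9%). Their median was 1.46, against 1.33 with the control shRNA and 0.03 untransduced. Against untransduced cells 12 of these 18 had a higher change (9.27% of all genes). TFAP2A, the border and crest regulator, stood at 4.82 and 4.63 before and at 8.72 and 8.95 after. GATA3 (2.52 against 1.11) and DLX6 (1.39 against 0.54) rose more than with the control shRNA, as did DLX5 and EYA1 (2.33 against 1.56). PAX3, TFAP2C and EYA4 had a lower change than there. PAX3, which marks the dorsal border, went from 4.39 and 4.49 to 7.34 and 7.58, against 9.41, 9.44 and 9.37 in control shRNA embryoid bodies (difference −1.52, adjusted p 5.3e-05).

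The neural crest list divided. Of 20 genes tested, 11 rose (17.2% of all genes) and 3 fell (20.9%), with a median of 0.45. In the difference from the control shRNA 8 were lower (5.99% of all genes) and 2 higher (3.66%). SNAI2, a repressor of migrating crest, reached 8.53 and 8.88 from 6.71 and 6.74, where the control shRNA reached 11.28, 11.28 and 11.12 (difference −2.43 ± 0.17, adjusted p 5.2e-07). SOX10, the crest progenitor factor, went from 6.08 and 6.30 to 6.75 and 6.84, an increase of 0.61 (adjusted p 0.0004), against 8.13, 8.40 and 8.21 in control shRNA embryoid bodies (difference −1.60, adjusted p 5.8e-06). ETS1, of cranial crest, fell from 7.58 and 7.83 to 6.00 on both arrays, while it rose to 9.31, 9.14 and 9.12 with the control shRNA (difference −2.87, adjusted p 1.1e-07). All 3 therefore rose less or fell, and none reached the control shRNA level on any array kept.

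Other crest genes with a lower change than the control shRNA were TFAP2B (3.88 against 5.70), EDNRB (−1.61 against −0.44), ERBB3 (−0.71 against 0.34), LMO4 (0.20 against 0.94) and NGFR (0.30 against 0.99). FOXD3, known from crest and counted here with the stem cell regulators, did not pass (−0.37, adjusted p 0.10) but rose by 0.95 with the control shRNA (difference −1.32, adjusted p 0.0014). CDH6 (4.40 against 4.22), CDH11 (2.08 against 2.23), SOX9 (0.88 against 0.72), SNAI1 (1.04 against 0.74) and TWIST1 (0.78 against 0.38) rose, with differences that did not pass. B3GAT1 and MYB had a higher change, but each call was lost in 11 of the settings varied. With each array centred on its median no crest gene was higher. In untransduced cells 9 of the 20 rose and 5 fell (median 0.08). There SNAI2 rose by 0.68, TFAP2B by 1.10 and PAX3 by 0.39, so these 3 changes under the KBTBD8 shRNA lay between the other treatments. Of the 20 crest genes 9 had a higher change than untransduced cells (9.27% of all genes) and 1 a lower one (12.2%). Bulk arrays cannot tell fewer cells of a type from less RNA per cell.

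Stem cell regulators fell, and some differed from the control shRNA. Of 25 tested, 16 fell (20.9% of all genes fell) and 2 rose, with a median of −0.83 against −0.94. In the difference from the control shRNA 4 were higher (3.66% of all genes) and 2 lower (5.99%). CRIPTO, the NODAL coreceptor, went from 10.93 and 10.88 to 6.83 and 6.99. That was less deep than the 5.40, 5.72 and 5.57 of the control shRNA (difference 1.14, adjusted p 0.013) and the 3.41, 2.53 and 3.32 of untransduced embryoid bodies (difference 3.92, adjusted p 9.9e-08). DNMT3B (−0.49 against −1.50), PRDM14 (−0.83 against −2.23) and GDF3 (−1.35 against −2.87) also fell less than with the control shRNA, while ERVH48-1 fell more (−4.20 against −2.71). POLR3G fell by 2.12, L1TD1 by 1.48 and ZFP42 by 0.97. LIN28A (0.20) and LIN28B (0.07) did not pass, and POU5F1 and NANOG are not reported because their probe sets carry several symbols.

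Surface and adhesion genes of stem cells fell in 9 of 16 cases (20.9% of all genes) and rose in 1 (17.2%). Their median was −0.73. CDH1, the epithelial cadherin, was at 10.30 and 10.29 before and at 10.53 and 10.58 after (0.25, adjusted p 0.25). In untransduced embryoid bodies it had gone to 5.99, 6.70 and 6.35 (difference 4.24, adjusted p 1.1e-08), and with the control shRNA it stood at 9.83, 9.84 and 9.81. EPCAM, an epithelial adhesion molecule, was at 10.95 and 10.62 before and 10.44 and 10.47 after, a difference that did not pass (−0.33, adjusted p 0.51), against 6.33, 7.72 and 7.99 in untransduced embryoid bodies. PODXL (−1.79 against −4.34) and CD9 (−1.83 against −4.27) fell less than in untransduced cells. THY1 fell by 2.33 (−1.98 with the control shRNA). CDH1 and EPCAM were thus high in embryoid bodies of both shRNAs and low without transduction, and virus and culture cannot be told apart.

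The miR-302 cluster, the main microRNA family of human stem cells, was read on 2 probe sets. Its members share a seed, and both members with a probe set of their own are shown to make that visible, from RefSeq on GRCh38.p14, minus strand, with the seed of bases 2 to 8 in capitals. The first lies at chr4:112648186-112648208 and the second at chr4:112648489-112648511.
miR-302a-3p: uAAGUGCUuccauguuuugguga
miR-302b-3p: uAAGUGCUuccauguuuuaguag
MIR302A stood at 9.73 and 9.71 before and at 8.98 and 9.08 after (−0.69, adjusted p 0.11), and MIR302B at 6.89 and 6.76 before and 6.61 and 6.79 after (−0.13, adjusted p 0.73). In untransduced embryoid bodies MIR302A stood at 4.17, 5.48 and 4.80, so that the change differed by 3.80 (adjusted p 1.6e-05), and that of MIR302B by 3.05 (adjusted p 8.2e-06). With the control shRNA MIR302A fell by 0.98 (adjusted p 0.0065) and MIR302B by 0.73 (adjusted p 0.0066), and neither difference from the KBTBD8 shRNA passed (0.29, adjusted p 0.74, and 0.61, adjusted p 0.27). The probe sets read transcripts of the microRNA genes and not the mature microRNAs.

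ATF4 target genes fell together, from a high start. ATF4 is the transcription factor of the integrated stress response, which raises amino acid transport and synthesis when translation is stressed. Of 32 genes of that response, 25 fell (20.9% of all genes fell) and 1 rose (median −1.25), against 18 and 5 with the control shRNA (median −0.51) and 25 and 0 untransduced (median −0.88). In the difference from the control shRNA 20 were lower (5.99% of all genes) and none higher, with 17 to 22 lower when 1 array was left out. With the replicate 2 arrays as labelled only 2 were lower and the median difference was 0.07, and with them exchanged 22 were lower. In the difference from untransduced cells 10 were lower and 1 higher (median −0.29), where 12.2% and 9.27% of all genes were. The list was chosen with earlier results of these data known.

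CHAC1, which degrades glutathione, stood at 9.43 and 9.19 before and at 6.74 and 6.45 after. TRIB3, a pseudokinase that restrains ATF4, went from 8.03 and 8.41 to 6.34 and 5.67. SLC7A11, the cystine transporter, went from 9.99 and 9.86 to 7.81 and 7.86. All 3 pluripotent pairs were above each pluripotent array of the other treatments, where CHAC1 reached 8.74, TRIB3 7.19 and SLC7A11 8.51. The falls exceeded those of the control shRNA by 1.94 for CHAC1 (adjusted p 0.0012), 2.03 for TRIB3 (adjusted p 0.00014) and 2.28 for SLC7A11 (adjusted p 1.7e-06).

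In these genes the shRNAs differed in pluripotent cells and seldom in embryoid bodies. In pluripotent cells 26 of the 32 were higher with the KBTBD8 shRNA than with the control shRNA (8.31% of all genes) and none lower, whereas in embryoid bodies none were higher and 1 was lower (2.94% of all genes). DDIT3, the stress factor also called CHOP, stood at 8.25 and 8.29 before and at 7.02 and 7.09 after (−1.22, adjusted p 0.0052) but rose by 1.05 with the control shRNA. DDIT4, an inhibitor of mTOR, was the member that rose (0.74, adjusted p 0.0085), and it rose by 2.21 with the control shRNA. The amino acid transporters SLC7A5 (−3.42) and SLC7A1 (−2.51) and the serine enzyme PHGDH (−1.09) fell with no passing difference from the control shRNA. ATF4 itself (−0.21, adjusted p 0.09), CEBPB (−0.06), ADM2 (−0.15), PSPH (−0.30), GDF15 (0.16) and ATF3 (−0.09) did not pass.

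**Figure D4:**
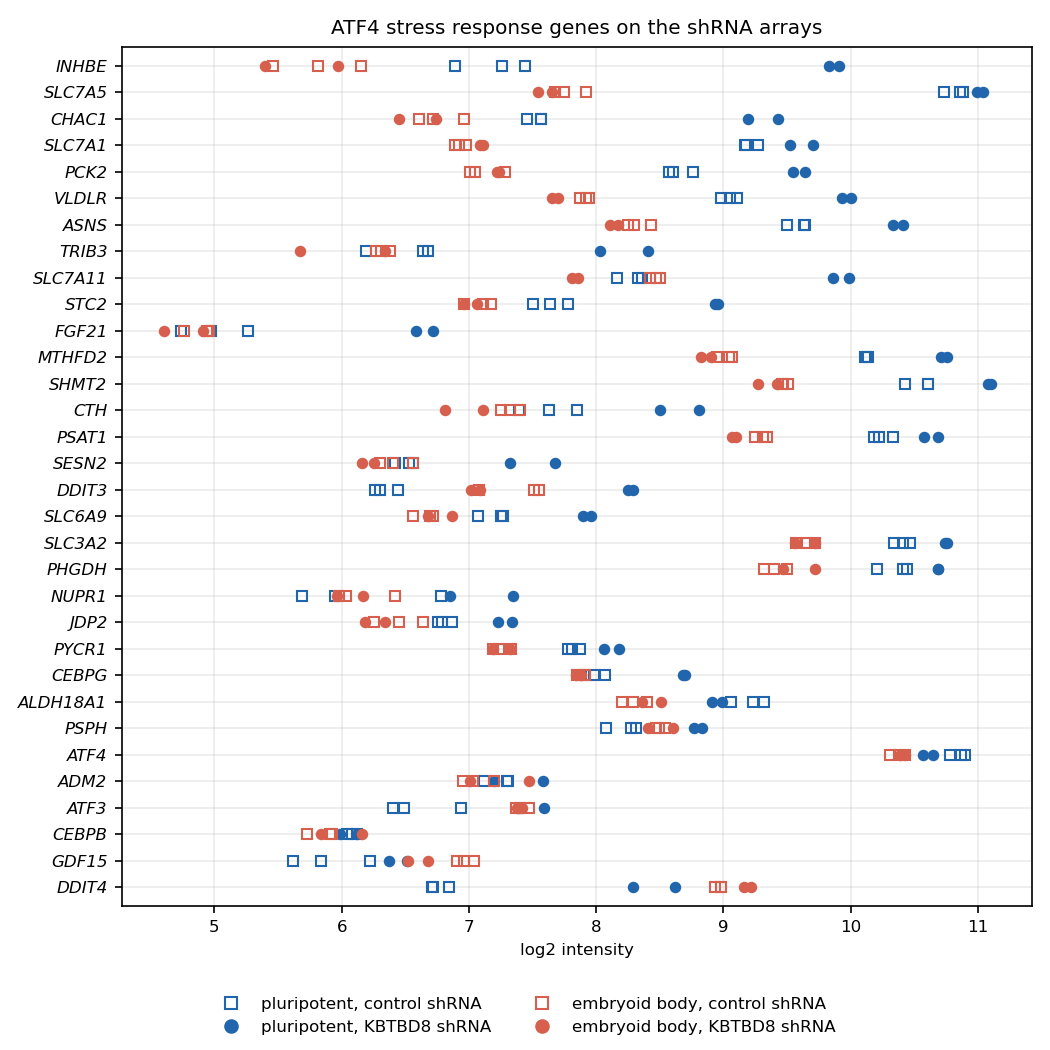
Log2 intensity of the 32 ATF4 stress response genes on the shRNA arrays, ordered by the change under the KBTBD8 shRNA; filled circles are the KBTBD8 shRNA (replicates 1 and 3), open squares the control shRNA, and colour gives the state. Blue circles lie right of the blue squares for most genes, such as CHAC1 and SLC7A11, while the red symbols of both shRNAs lie close together.

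The aminoacyl-tRNA synthetases, which charge tRNAs and include ATF4 targets, fell in 15 of 19 cases (20.9% of all genes) and rose in 1 (17.2%). Their median was −0.64, against −0.55 with the control shRNA. In the difference from the control shRNA 6 were lower (5.99% of all genes) and none higher (3.66%). CARS1 (−1.94 against −1.01), WARS1 (−1.70 against −0.94), GARS1 (−1.50 against −0.69), AARS1 (−1.40 against −0.68) and SARS1 (−0.88 against 0.07) were among them. AARS1 stood at 10.97 and 11.06 before and at 9.59 and 9.64 after. QARS1 rose by 0.51 (adjusted p 0.00072).

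ATF4 and its partners bind a composite element written TGATGNAA, and it was searched on both strands in the 250 bases before the start of each gene, in RefSeq promoters of GRCh38.p14. It was found in 4 of 26 stress list promoters (15.4%), in 2 of 16 synthetase promoters (12.5%), in 1.5% of the promoters of genes tested and in 3.19% of all 27305 promoters. The 6 matches are printed to show the element in the genes read here, 5′ to 3′ on the strand of the gene and with the element in capitals, where TTNCATCA is its reverse complement. They lie at chr15:40953242-40953289 (plus strand), chr7:97872449-97872496 (minus), chr1:212565196-212565243 (plus), chr19:48755450-48755497 (plus), chr16:70289666-70289713 (minus) and chr9:92293698-92293730 (minus), in the order of the lines.
CHAC1: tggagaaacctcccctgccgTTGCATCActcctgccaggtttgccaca
ASNS: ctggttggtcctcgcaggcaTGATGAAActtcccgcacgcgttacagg
ATF3: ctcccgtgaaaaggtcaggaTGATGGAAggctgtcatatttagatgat
FGF21: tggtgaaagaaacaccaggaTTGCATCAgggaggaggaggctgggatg
AARS1: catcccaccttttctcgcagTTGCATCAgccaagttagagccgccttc
IARS1: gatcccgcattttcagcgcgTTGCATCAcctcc
Of these 6 genes, 5 fell. ASNS, the asparagine synthetase, went from 10.41 and 10.33 to 8.17 and 8.11, FGF21, a stress hormone, from 6.58 and 6.72 to 4.60 and 4.91, and IARS1 fell by 0.75. ATF3, a stress factor with the element, did not pass (7.39 and 7.59 before, 7.42 and 7.38 after). ASNS, ATF3 and IARS1 were named for the match. A match describes letters only.

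TXNIP and ARRDC4, arrestin relatives that restrain glucose uptake, turned round. TXNIP went from 11.03 and 11.02 to 10.08 and 9.93, whereas with the control shRNA it went from 7.44, 7.61 and 7.42 to 10.48, 10.50 and 10.54 (difference −4.03 ± 0.27, adjusted p 3.1e-07). Untransduced cells began higher than the control shRNA, at 8.77, 9.62 and 9.73, and rose by 0.95. The TXNIP difference from untransduced cells was −1.96 (limma adjusted p 9.7e-05). ARRDC4 went from 7.89 and 7.99 to 5.92 and 6.12 (−1.92), whereas it rose by 1.07 with the control shRNA and by 0.86 untransduced. Both were thus highest on the pluripotent KBTBD8 shRNA arrays and fell from there. ARRDC3 rose by 3.73 (4.27 with the control shRNA). In this list of 9 genes 3 rose and 3 fell, where 17.2% and 20.9% of all genes did.

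Fewer sterol synthesis genes fell than with the control shRNA, and the changes of most differed between the shRNAs. Of 18 tested, 3 rose and 5 fell (median −0.01), where 17.2% and 20.9% of all genes did. The control shRNA gave 0 and 13 (median −0.66) and untransduced cells 0 and 12 (median −0.33), where 25.1% and 26.1% of all genes fell. The count of 5 became 2 without replicate 1 of the KBTBD8 shRNA embryoid bodies. In the difference from the control shRNA 12 were higher and none lower, with 7 to 11 when 1 array was left out (7 without replicate 1 of the pluripotent KBTBD8 shRNA cells) and 7 with each array centred on its median. Over all genes 3.66% of these differences were higher and 5.99% lower. INSIG1, a sterol sensor that holds SREBP in the endoplasmic reticulum, went from 7.12 and 7.21 to 8.34 on both arrays. The control shRNA arrays of INSIG1 lay between 7.98 and 8.29 in both states (difference 1.31, adjusted p 1.2e-05). HMGCS1, an early enzyme of the pathway, went from 10.28 and 10.17 to 10.72 and 10.68, against a fall of 0.61 with the control shRNA (difference 1.09, adjusted p 2.8e-05). SQLE, squalene epoxidase, read 9.79 and 9.77 and then 9.77 and 9.75, against a fall of 1.12. In pluripotent cells 10 of the 18 were lower with the KBTBD8 shRNA than with the control shRNA (5.46% of all genes) and 1 higher. In embryoid bodies 2 were higher (2.8% of all genes). A sterol response element, TCACNCCAC, was found in 1 of 17 promoters of this list and in 0.845% of those of genes tested.

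Several WNT genes moved apart from the control shRNA, in both directions. Of 23, 12 rose (17.2% of all genes) and 2 fell (20.9%), with a median of 0.56. In the difference from the control shRNA 4 were higher (3.66% of all genes) and 6 lower (5.99%). AXIN2, a feedback target read in many tissues, stayed at 7.41 and 7.47 before and 7.43 and 7.41 after, while it rose to 8.74, 8.70 and 8.79 with the control shRNA (difference −1.50, adjusted p 7.4e-06). The target NKD1 (−0.08 against 1.09), the antagonist DKK1 (1.94 against 3.52), the factor LEF1 (2.28 against 3.65) and WLS, which carries WNT proteins to the surface (2.72 against 4.67), also had a lower change. FZD5, the antagonists FRZB (4.09 against 2.20) and SFRP1 (0.67 against −0.36) and the receptor LGR5 (1.36 against 0.31) had a higher one. In untransduced cells FZD5 rose by 1.81 and FRZB by 3.74, and the FRZB difference from them did not pass (0.35, limma adjusted p 0.48). The WNT ligands WNT3 (0.21), WNT3A (0.26) and WNT8B (0.56, adjusted p 0.05) did not pass, and WNT1 rose by 0.47.

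Among FGF ligands and ERK targets 10 of 27 rose and 11 fell (median −0.05), where 17.2% and 20.9% of all genes did. Besides FGF8, SPRY1 (0.85 against −0.19) and SPRY2 (0.85 against −0.06), feedback inhibitors of FGF signalling, rose with a higher change than the control shRNA. DUSP6 (−1.11 against −2.69) and ETV4 (−1.18 against −1.74) fell less, while SPRY4 (−2.27) and PHLDA1 (−1.79) fell more. In this list 7 changes were higher and 4 lower than with the control shRNA, and the 4 became 0 without replicate 3 of the pluripotent KBTBD8 shRNA cells. Over all genes 3.66% of these differences were higher and 5.99% lower. ETV5 did not pass (adjusted p 0.99) but fell by 1.16 with the control shRNA (difference 1.16, adjusted p 0.0019). FGF2 and FGF19 fell by 0.84 and 1.89.

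Among NODAL, activin and TGF-beta genes 10 of 18 fell and 4 rose, where 20.9% and 17.2% of all genes did. The median was −0.43, and −0.35 with the control shRNA. Ligands and inhibitors fell together, with NODAL at −1.46, LEFTY1 at −0.91, LEFTY2 at −0.79 and CER1 at −1.0. FST, the activin antagonist follistatin, rose by 1.63, less than the 2.77 of the control shRNA (adjusted p 0.0045), and TGFB2 rose by 1.44. BMP genes rose in 10 of 16 cases and fell in 2, to be read beside the same shares. Their median was 0.55, against 0.63 with the control shRNA and 0.04 untransduced. The ligand BMP5 rose by 3.0, BMP4 by 1.12, the antagonist GREM1 by 2.32 and the targets ID4 and ID1 by 1.98 and 0.87. In this list 1 difference from the control shRNA passed, that of SMAD7, where 9.65% of all genes did.

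NOTCH genes gave 6 rises and 3 falls among 17, where 17.2% of all genes rose and 20.9% fell. A lower change than with the control shRNA was found for 4 NOTCH genes (5.99% of all genes). JAG1, a ligand, did not pass (−0.07) but rose by 1.38 with the control shRNA (difference −1.45, adjusted p 0.00014), and HEY2, a target, fell by 2.27. Of 12 retinoid genes 6 rose and 4 fell. CYP26A1, which degrades retinoic acid, rose by 2.34 and CRABP2, which binds it, by 3.10, with no passing difference from the control shRNA, whereas STRA6, a retinol transporter, rose by 0.35 against 1.49 (adjusted p 0.00013). RARRES2 fell by 2.67.

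Markers of other cell types an embryoid body can hold were counted in the same way. Over all genes 17.2% rose and 20.9% fell, and the counts of these lists are to be read beside those shares. Early neuron genes rose in 5 of 18 cases and fell in 1 (median 0.16, against 0.52 with the control shRNA), and the mean level of the list lay at 6.14 to 6.16 before and 6.52 to 6.55 after, against 6.86 to 6.94 in control shRNA embryoid bodies. MAP2 (3.25) and STMN2 (2.12) rose, DCX did not pass (−0.03 against 0.88, difference −0.91, adjusted p 0.0044), and ELAVL4 and POU4F1 had a lower change too. Altogether 5 neuron genes had a lower change than the control shRNA, and 2 did without replicate 1 of the pluripotent KBTBD8 shRNA cells. Of 15 primitive streak and mesoderm genes 2 rose and 1 fell. TBXT (0.10), MESP1 (−0.02), EOMES (0.16) and GATA4 (−0.04) did not pass, KDR fell by 2.13, and MEF2C (−0.08 against 2.39) and PDGFRA (0.68 against 1.94) had a lower change than the control shRNA.

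Endoderm and yolk sac genes gave 4 rises and 2 falls among 14, and 2 rises without replicate 1 of the KBTBD8 shRNA embryoid bodies. AFP, the fetal serum protein, stood at 5.12 and 5.10 before and at 4.85 and 4.23 after (−0.57, adjusted p 0.083), against 7.65, 7.11 and 7.24 in control shRNA embryoid bodies (difference −2.04, adjusted p 0.00082). APOA2 (−0.20 against 1.27), TTR (0.10 against 1.35), SERPINA1 (−0.15 against 0.60) and APOA1 (0.02 against 0.60) had a lower change as well, while SOX17 (0.40) and HHEX (0.87) rose with a higher one. The mean level of this list was 5.80 to 5.90 before and 5.92 to 6.02 after, against 6.67 to 6.73 in control shRNA and 5.40 to 5.44 in untransduced embryoid bodies, so it was highest, like SNAI2 and SOX10, with the control shRNA, and its part in the crest results was not tested. In the list of endothelium and blood 1 of 9 rose and 1 fell, with TAL1 at 0.15 and PECAM1, CDH5, HBE1 and PTPRC not among the genes tested. Trophoblast and amnion genes gave 1 rise, HAPLN1, and 1 fall, KRT18, among 4, and KRT7 did not pass (−0.29). Mesenchyme and matrix genes gave 4 rises and 4 falls among 14, where VIM (1.31) and ZEB1 (1.21) rose and TAGLN (−2.32) and THBS1 (−1.74) fell.

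Ribosome biogenesis, the process to which KBTBD8 has been tied, fell in part. Of 49 genes 25 fell (20.9% of all genes) and none rose (17.2%), with a median of −0.33. The control shRNA gave 38 and 1 (median −0.52) and untransduced cells 32 and 1 (median −0.33). The count of 25 became 15 without replicate 3 of the pluripotent KBTBD8 shRNA cells. In the difference from the control shRNA 5 were higher (3.66% of all genes) and none lower (5.99%). With each array centred on its median 1 was higher. DDX21 and LYAR fell by 1.29 and 1.27. TCOF1 did not pass (−0.26, adjusted p 0.054, against −0.55 with the control shRNA) and NOLC1 fell by 0.42 against 0.55, with differences that did not pass (adjusted p 0.18 and 0.62). CUL3 itself did not pass (−0.08). Among 20 genes of KBTBD8, CUL3 and their partners 4 rose and 3 fell, near the 17.2% and 20.9% of all genes. Of these, 2 to 3 rose when 1 array was left out, and 0 fell without replicate 3 of the pluripotent KBTBD8 shRNA cells.

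Hypoxia and glycolysis genes rose in 16 of 20 cases and fell in 1 (median 0.84, against 0.94 with the control shRNA and 0.45 untransduced). ANKRD37 (3.28), BNIP3 (2.66), NDRG1 (1.97) and LDHA (1.73) rose, and VEGFA did not pass (0.07 against 1.39, difference −1.32, adjusted p 0.00029). Cell cycle genes gave 5 rises and 6 falls among 31 (median −0.06), near the 17.2% and 20.9% of all genes, and the 5 became 2 without replicate 1 of the pluripotent KBTBD8 shRNA cells. With the control shRNA 4 rose and 18 fell, where 22.9% and 25.1% of all genes did. PCNA (0.20 against −0.54) and RRM2 (0.31 against −0.57) had a higher change than there. Targets of p53 fell in 9 of 21 cases and rose in 3, with PMAIP1 at −2.32 and CDKN1A at 0.73, and 5 to 7 fell and 1 to 3 rose when 1 array was left out, with 5 falls without replicate 1 of the pluripotent KBTBD8 shRNA cells. Interferon response genes gave 2 rises and 4 falls among 13, where 17.2% of all genes rose and 20.9% fell, and IDO1 fell by 3.06.

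**Figure D5:**
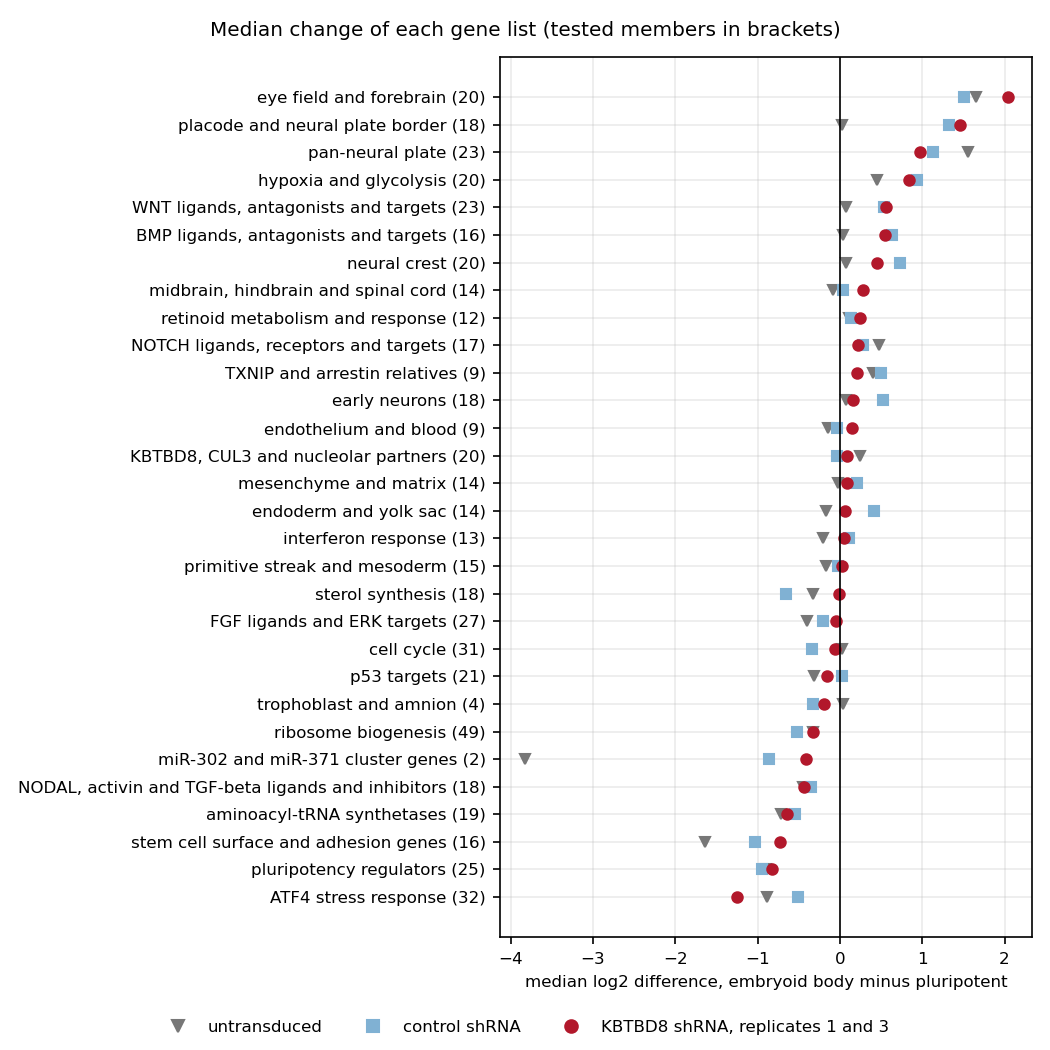
Median log2 difference of embryoid bodies minus pluripotent cells for each of the 30 gene lists, with the number of tested members in brackets; red circles are the KBTBD8 shRNA, blue squares the control shRNA and grey triangles untransduced cells. The forebrain list is highest at 2.04 and the stress list lowest at −1.25 under the KBTBD8 shRNA, and the miR-302 genes differ most between treatments.

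The difference from untransduced differentiation passed for 3088 genes (21.5%), 1332 with a higher and 1756 with a lower change. With each array centred on its median the split was 861 and 1863. The count was 1854 without replicate 3 of the pluripotent KBTBD8 shRNA cells and 1986 without replicate 1 of their embryoid bodies. The 8 largest differences towards a higher change were CDH1 (4.24), CRIPTO (3.92), MIR302A (3.80), DLX5 (3.74), EPCAM (3.33), HAPLN1 (3.23), S100A11 (3.21) and CYP26A1 (3.08). The 8 largest towards a lower change were SULF1 (−3.46), MEIS1 (−3.26), FGF9 (−3.13), PARM1 (−2.94), LAMP5 (−2.79), EYA4 (−2.78), ARRDC4 (−2.77) and DIPK1C (−2.74). SULF1, a heparan sulfatase, stood at 7.21 and 7.39 before and at 6.94 and 7.27 after, while it rose from 5.98, 6.15 and 6.14 to 9.45, 9.13 and 9.49 in untransduced cells and passed the same test against the control shRNA (−2.03, adjusted p 9.6e-06). Of the 16 genes, DLX5, HAPLN1, CRIPTO, CDH1, SULF1, EYA4, LAMP5 and ARRDC4 differed from the control shRNA in the direction given here.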

How the data were processed

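Gene expression was read on Affymetrix Human Gene 1.0 ST arrays, 1 per sample. The deposited values are log2 intensities that the authors made with GCRMA, per the submitters' processing notes. Its version, and whether all 18 arrays were normalized together, are not given in the sources used here, and the log base follows from the method and the range of values. Of 33297 probe sets, 19460 had 1 symbol, 1754 several and 12083 none in the platform annotation, with symbols updated through gene identifiers to RefSeq GRCh38.p14. Each gene was read on its probe set with the highest mean. Genes were tested where 2 or more of the 16 arrays used read them higher than that array's 40th percentile.

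A limma model (limma 3.58.1, R 4.3.3) with 6 groups was fitted to 16 arrays and tested with the empirical Bayes test, and p-values were adjusted by Benjamini-Hochberg over 14373 genes with a threshold of 0.05. All errors are standard errors of that model, which pools the spread over the groups (10 residual degrees of freedom). Tables were made with pandas 2.3.3 and figures with matplotlib 3.10.9. On simulated data of 14373 genes for the KBTBD8 shRNA comparison, 94% of 100 genes changed by a log2 of 1 were recovered. Of 100 changed by 2, 100% were recovered, and 6 unchanged genes were called. Noise was drawn independently for each gene, and few genes were changed. These rates therefore check the fit and do not measure how reliable the calls on the real arrays are.

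The members and the 30 gene lists were chosen with earlier results of these data known. Named genes are KBTBD8, the 5 markers, the 12 largest increases and decreases, the 8 largest in each direction of each difference, a set of lineage genes and up to 6 members a list by size. The 12 largest increases and decreases were taken among genes that passed and did not overlap between the 2 groups. Other list members are named to account for a count and were chosen after their values were seen. Array scaling, the filter, the probe set rule, the groups fitted, the variance trend, single arrays and both replicate 2 labels were varied.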

Additional observations from a re-analysis of the deposited data

Results flagged for a closer look

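The change under the KBTBD8 shRNA differed from that under the control shRNA for 1387 genes and from that of untransduced cells for 3088 genes, by the interaction term of the limma model.

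Both replicate 2 arrays of the KBTBD8 shRNA, which the comparison leaves out, carried the signal of the opposite state. The array labelled pluripotent had a state score of 0.42 and the array labelled embryoid body one of −0.79.

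Among probe sets without exactly 1 gene symbol, which the report does not use, 796 of 7089 tested (11.2%) passed between KBTBD8 shRNA embryoid bodies and pluripotent cells, 489 higher and 307 lower.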

How the results depend on the processing

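With both replicate 2 arrays kept as labelled, 0 genes passed in KBTBD8 shRNA differentiation (limma, 774 at an unadjusted p under 0.05), 521 in the difference from the control shRNA and 1475 in that from untransduced cells, and the sign of these named values turned. KRT18 changed by 0.08 in KBTBD8 shRNA differentiation. The differences from the control shRNA that turned were AARS1 0.36, ADCY2 2.11, ASNS 0.54, CARS1 0.43, CXCL5 0.11, DACH1 −1.51, DLX5 −0.73, DLX6 −0.17, ENC1 −1.58, ERVH48-1 1.28, EYA1 −0.92, FEZF1 −1.13, FRZB −0.69, GARS1 0.20, GATA3 −0.07, GNA14 1.36, HAPLN1 −1.16, HEY2 0.97, LDHA −0.39, LHX2 −0.25, LRRC2 0.66, PHLDA1 0.39, SIX3 −0.04, SIX6 −0.09, SOX11 −0.28, SPATS2L 1.11, SPRY4 0.88 and WARS1 0.43. The differences from untransduced cells that turned were AARS1 0.69, ADCY2 2.40, ANKRD37 −0.13, BMP5 −0.89, BNC1 0.50, BNIP3 −0.18, CARS1 0.78, CDH6 −1.22, CXCL5 1.61, ENC1 −0.78, FEZF1 −0.32, FGF19 0.29, FGF21 0.05, FZD5 −0.95, GARS1 0.33, GNA14 1.52, ID4 −0.17, INHBE 1.12, LRRC2 1.29, LYAR 0.25, MAP2 −1.25, NDRG1 −0.64, OTX2 −0.38, PAX8 −0.38, PRTG −2.72, SLC7A1 1.11, SNAI2 −0.15, TFAP2A −0.11, TRIB3 0.01 and WARS1 0.29. That setting mixes arrays that lie with opposite states. With both labels exchanged the difference from the control shRNA held 2312 genes. Leaving out single arrays gave 4024 to 4514 genes for KBTBD8 shRNA differentiation, 731 to 1200 for the difference from the control shRNA and 1854 to 3481 for that from untransduced cells. Leaving out 1 array or another ended the call of these named genes in KBTBD8 shRNA differentiation: B3GAT1, CDKN1A, DDIT4, DNMT3B, EMX1, KRT18, MYB, NOLC1, PDGFRA, PRDM14, RRM2, S100A11, SMAD7, SOX17, SOX2, STRA6 and WNT1. In the difference from the control shRNA it ended the call of APOA1, B3GAT1, CDH1, CRIPTO, DACH1, ELAVL4, ENC1, ETV4, EYA1, EYA4, FEZF2, GDF15, GNA14, HEY2, HHEX, KRT18, LAMP5, LMO3, MYB, NDRG1, NGFR, OTX1, PHLDA1, POU4F1, PSPH, RAX, SIX6, SMAD7, SOX11, SOX17, SPRY4, TGFB2 and ZEB2. Over the settings varied, the calls in the difference from the control shRNA lost most often were KRT18 and OTX1 (14 settings each) and SOX11 (13). ETV4 and LMO3 followed with 12 each, and B3GAT1, MYB and TGFB2 with 11 each. Centring each array on its median moved the share of higher calls in the difference from untransduced cells from 43.1% to 31.6%. The replicate numbers 1 and 3 do not establish pairing, and a fit with the replicate block gave 5457, 1400 and 3058 genes. No other setting turned a named value. Precision is limited by 2 arrays a group, and levels under the 40th percentile of an array are near background.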
